A study of Mus musculus with 6 samples.

Results

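This section describes 39 genes of DNA replication, mitosis and cyclin-CDK control in the mouse liver, chosen by gene symbol from a list that covers these roles. All 39 symbols were found, each once, among the 16426 genes listed in at least 1 of 6 liver libraries, and a gene absent from a library's table was counted as 0. The livers came from male mice, 7 to 12 weeks old, on a mixed B6:sv129 background, which received AAV8 through the tail vein. In the scramble group (3 livers) the vector expressed a scrambled short hairpin RNA, and in the S1pr2 shRNA group (3 livers) it expressed a hairpin against S1pr2, a receptor for the lipid sphingosine-1-phosphate. The series text describes dexamethasone, a synthetic glucocorticoid, in the drinking water at about 0.84 mg/kg for 7 days, which would be common to both groups. The labels of the single livers do not name it, and no group without it was analysed here. The promoter that drives the hairpins and the cell types they reached are unknown from the sources used here, and whether each liver is 1 animal is not stated, so p-values measure the spread between these samples only.

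The cell division cycle is driven by cyclins, which appear and disappear in turn, and by the cyclin-dependent kinases (CDKs) they activate. D-type cyclins with Cdk4 or Cdk6 start the process by phosphorylating the retinoblastoma protein, which releases E2F transcription factors. Cyclin E and cyclin A with Cdk2 then carry the cell through DNA synthesis, and cyclin B with Cdk1 through mitosis. In the adult liver most hepatocytes rest outside the cycle, so transcripts of the mitotic genes are scarce and can come from any dividing cell of the organ.

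Of the 39 genes, 30 had enough reads for the test and 9 did not. Between the groups, 1 of the 30 rose in the S1pr2 shRNA livers (Plk2) and 1 fell (Rrm2), while 28 did not pass. That is 6.67% of the 30, against 7.66% of the 12230 genes tested in all. Rrm2, the small subunit of the enzyme that makes deoxyribonucleotides, was 3.29-fold lower. Plk2, a stress-induced member of the polo-like kinase family, was 2.39-fold higher. The classical proliferation genes, among them Mki67, Top2a, Ccna2 and Ccnb1, were high in scramble liver 3 and S1pr2 shRNA liver 1 and low in the other 4 livers. Mki67 and Ccna2 did not pass the test, and Top2a and Ccnb1 had too few reads to judge between the groups.

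The test was edgeR's quasi-likelihood F test over all these genes, two-sided, with a call at a Benjamini-Hochberg adjusted p under 0.05. It called 3.02% of them as higher and 4.64% as lower in the S1pr2 shRNA livers, so the share of cell cycle genes called was near the background. In 6 of the 30 (20%) the groups did not overlap, against 31.9% of all genes tested. The median log2 fold change of the 30 genes was -0.04 and that of all genes 0.01. Their values were less precise, with a median standard error (SE) of 0.29 against 0.16 for all genes. The F test returns no SE, so each was derived as the absolute log2 fold change divided by the square root of F.

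Library totals lay between 16558775 and 17410160 expected counts. The targeted transcript checked the labels: S1pr2 averaged 5.43 ± 1.14 CPM in the scramble livers and 2.49 ± 0.474 CPM in the S1pr2 shRNA livers (SD, n = 3 each; log2 fold change -1.12 with an SE of 0.24, edgeR adjusted p = 0.0301). CPM are counts scaled to a common library size. The tissue label was met by the hepatocyte markers, since Alb alone took 6.55 to 12.3% of the counts in every library.

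To place the results, promoter sequence is shown for 4 genes: Ccnb2 and Cdk1, from the group that was high in those 2 livers, and Rrm2 and Plk2, the called genes. Each line holds the 150 bases before the transcription start in RefSeq's GRCm38.p6 build, 5′ to 3′ along the gene. Capitals mark letters that match, on either strand, the CCAAT box (CCAAT), the CHR element of mitotic promoters (TTTGAA or TTCGAA) or an E2F element (TTTCCCGC, TTTGGCGC or TTTCGCGC).
Ccnb2 (chr9:70421555-70421704, minus strand): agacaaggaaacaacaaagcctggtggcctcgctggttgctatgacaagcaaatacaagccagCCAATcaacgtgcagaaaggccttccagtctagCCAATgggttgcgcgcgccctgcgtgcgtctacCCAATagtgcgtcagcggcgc
Cdk1 (chr10:69352913-69353062, minus strand): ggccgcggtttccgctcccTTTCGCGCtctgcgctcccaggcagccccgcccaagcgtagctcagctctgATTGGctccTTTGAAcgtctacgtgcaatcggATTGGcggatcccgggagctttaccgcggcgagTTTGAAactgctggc
Rrm2 (chr12:24708104-24708253, plus strand): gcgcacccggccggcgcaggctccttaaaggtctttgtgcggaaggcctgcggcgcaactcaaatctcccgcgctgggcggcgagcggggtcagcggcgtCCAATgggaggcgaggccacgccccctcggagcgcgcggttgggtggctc
Plk2 (chr13:110394894-110395043, plus strand): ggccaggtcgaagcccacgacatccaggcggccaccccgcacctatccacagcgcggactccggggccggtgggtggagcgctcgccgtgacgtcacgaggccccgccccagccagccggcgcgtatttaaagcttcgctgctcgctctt
Ccnb2 shows 3 CCAAT matches in this stretch, Cdk1 an E2F, 2 CCAAT and 2 CHR matches, Rrm2 a single CCAAT match and Plk2 none.

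Promoter windows of 300 bases (250 before and 50 after the start) were found for 32 of the 39 genes, 36 windows in all. Among the 8 windows of genes with too few reads for the test, CCAAT matched in 7 and CHR in 6 (Bub1, Ccnb2, Cdc20, Cdk1, Plk1 and Top2a). Over the 28 windows of tested genes the counts were 15 and 4. Across all 32851 windows of the table, 37.4% held CCAAT, 19.2% CHR and 1.84% E2F letters. E2F letters occurred in 8 of the 36 windows, those of Cdc6, Cdk1, Cdk2, Cdt1, Mcm3, Mcm5, Mcm6 and 1 of 2 Mcm7 starts. These are letter matches only, and the liver data hold no measurement of binding.

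**Figure D1:**
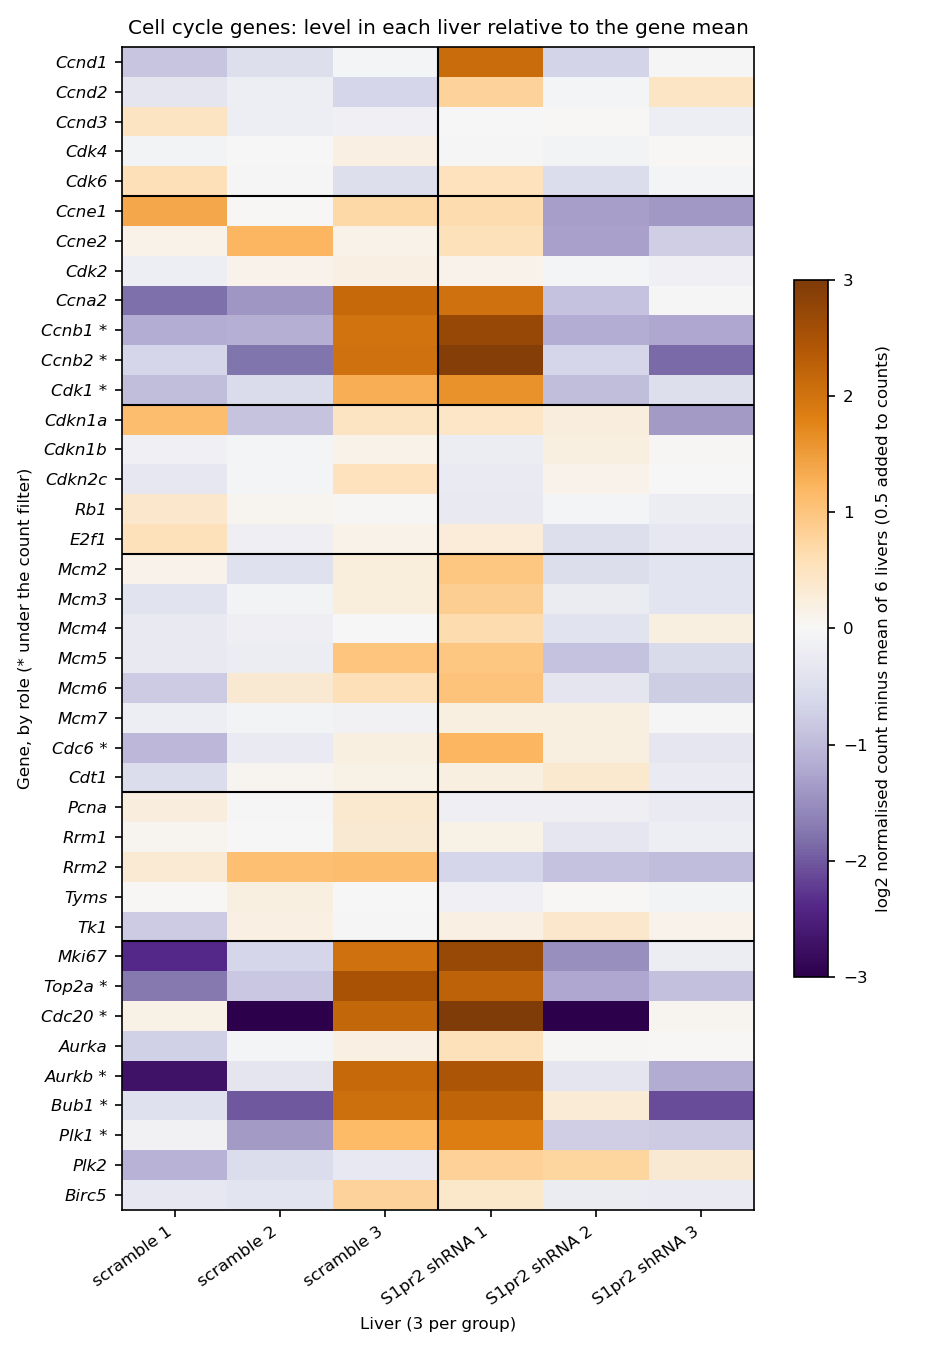
Level of each of the 39 genes (rows, ordered by role, with * for genes under the count filter) in each of the 6 livers (columns), as log2 normalised count minus the gene's mean over the livers, with 0.5 added to each count. Scramble liver 3 and S1pr2 shRNA liver 1 are dark orange from Ccna2 to Cdk1 and over most mitosis genes, while Rrm2 and Plk2 follow the groups.

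The D-type cyclins sense growth signals. Ccnd1, the cyclin of this class most tied to hepatocyte growth, had 53, 68 and 93 counts in scramble livers 1 to 3 and 505, 61 and 98 in S1pr2 shRNA livers 1 to 3. One liver alone was high, and the other 5 overlapped. The fold change of 1.43 (log2 scale, SE 0.78, edgeR adjusted p = 0.337) came to 0.12 (edgeR adjusted p = 0.861) without S1pr2 shRNA liver 1. Ccnd2 had 56, 63 and 46 scramble counts and 151, 69 and 103 counts under the S1pr2 hairpin. In CPM, every S1pr2 shRNA liver (7.64, 4.23 and 6.03) lay above every scramble liver (3.43, 3.92 and 2.78). Its log2 fold change of 0.82 (SE 0.26) did not pass (edgeR adjusted p = 0.0929). Ccnd3 was the most abundant of the 3 cyclins per length, with a median of 14.4 FPKM over the 6 livers against 1.21 for Ccnd1 and 0.665 for Ccnd2. It ranged from 438 to 693 counts with a log2 fold change of -0.15 (SE 0.18). Neither kinase partner passed, with Cdk4 at -0.06 (SE 0.11; 388 to 486 counts) and the scarcer Cdk6 at -0.02 (SE 0.38; 26 to 66 counts).

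Cyclin E opens DNA synthesis with Cdk2. Ccne1 had 48, 18 and 30 counts in scramble livers 1 to 3 and 35, 7 and 7 in S1pr2 shRNA livers 1 to 3. The groups overlapped because S1pr2 shRNA liver 1 reached the scramble range, and the log2 fold change was -1.13 (SE 0.63, edgeR adjusted p = 0.318). Ccne2 was likewise highest in liver 1 of the S1pr2 shRNA group, with 32.0, 6.91 and 11.1 counts against 19.7, 41.4 and 20 in the scramble livers. Its log2 fold change was -0.86 (SE 0.55, edgeR adjusted p = 0.382). Without S1pr2 shRNA liver 1, Ccne1 stood at -2.21 (edgeR adjusted p = 0.0631) and Ccne2 at -1.61 (edgeR adjusted p = 0.121). With any other single liver left out, Ccne1 ran from -1.43 (without scramble liver 2) to -0.72 (without scramble liver 1), and Ccne2 from -1.04 (without scramble liver 3) to -0.43 (without scramble liver 2), and neither passed. Cdk2 itself varied little, at 95 to 141 counts and a log2 fold change of -0.06 (SE 0.16).

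Cyclins A and B and Cdk1 belong to the later cycle. Ccna2 had 3.19, 4.29 and 57.3 counts in scramble livers 1 to 3 and 63.4, 6.48 and 12.8 in S1pr2 shRNA livers 1 to 3. Ccnb1 had 2, 2 and 22 counts against 44, 2 and 2. Ccnb2 had 5, 2 and 35 counts against 78, 5 and 2. Each group thus held 1 liver far above its other 2 for all these cyclins. Cdk1, the kinase they activate, had 6, 8 and 31 counts against 46, 6 and 9. Of these 4 genes Ccna2 was tested, with a log2 fold change of 0.17 and an SE of 1.23 (edgeR adjusted p = 0.952). Ccnb1, Ccnb2 and Cdk1 were under the count filter and are too low to judge between the groups.

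The inhibitors and the retinoblastoma-E2F switch had other orders of livers. Cdkn1a, which encodes the CDK inhibitor p21, had 1234, 307 and 817 counts in scramble livers 1 to 3 and 946, 669 and 232 in S1pr2 shRNA livers 1 to 3. In CPM, scramble livers 1 and 3 were the 2 highest and S1pr2 shRNA liver 3 the lowest, and scramble liver 2 lay within the S1pr2 shRNA range. The log2 fold change was -0.49 (SE 0.65, edgeR adjusted p = 0.712). Per length it was the most abundant of the 39 genes, with a median of 22.9 FPKM and a range of 7.26 to 38.3. Cdkn1b, the gene of the inhibitor p27, varied little, at 286 to 358 counts (0.03, SE 0.13), and Cdkn2c ranged from 30 to 55 counts (-0.14, SE 0.29). Rb1, the retinoblastoma gene, had 13.5, 10.7 and 10.5 CPM in the scramble and 8.55, 9.86 and 8.96 CPM in the S1pr2 shRNA livers. In CPM no S1pr2 shRNA liver reached the scramble range, but the log2 fold change of -0.34 (SE 0.14) did not pass (edgeR adjusted p = 0.181). In the authors' FPKM, scramble liver 2 and S1pr2 shRNA liver 1 were both at 2.1. E2f1 stood at -0.33 (SE 0.29, edgeR adjusted p = 0.548), with 33.6 to 69.7 counts.

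Origin licensing loads the ring of MCM helicase subunits onto DNA with the help of Cdc6 and Cdt1. None of the 7 tested licensing genes passed edgeR's test, and none had an unadjusted p under 0.05. The 6 MCM subunits together gave 19.4, 22.1 and 26.0 CPM in the 3 scramble livers, in order of their number, and 35.2, 21.7 and 20.4 CPM under the S1pr2 hairpin. S1pr2 shRNA liver 1 was the highest and scramble liver 3 the second, with a much smaller step than for the cyclins. Mcm7, the most abundant subunit, had 10.1, 10.8 and 10.6 CPM against 13.2, 13 and 11.1 CPM, with no overlap. Its log2 fold change was 0.25 (SE 0.12, edgeR adjusted p = 0.242). Mcm6 ranged from 29 in scramble liver 1 to 125 counts in S1pr2 shRNA liver 1, at a log2 fold change of 0.03 (SE 0.55). Mcm2 (0.21), Mcm3 (0.27), Mcm4 (0.35) and Mcm5 (-0.20) had SEs of 0.30 to 0.59 on the log2 scale. Cdt1 stood at 0.20 (SE 0.27; 37 to 75 counts), and Cdc6, with 1 to 8 counts, is too low to judge.

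Nucleotide supply held the one cell cycle gene that fell. Rrm2 had 349, 595 and 618 counts in scramble livers 1 to 3 and 220, 150 and 150 in S1pr2 shRNA livers 1 to 3. The lowest scramble liver stood at 21.4 CPM and the highest S1pr2 shRNA liver at 11.1 CPM, so the groups were well apart. The means were 31.9 ± 9.14 and 9.70 ± 1.26 CPM (SD, n = 3 each), which left 30.4% of the scramble level (log2 fold change -1.72 with an SE of 0.23, edgeR adjusted p = 0.00892). With any single liver left out the log2 fold change ran from -1.94 to -1.59 and the call held. S1pr2 shRNA liver 1, which had high mitotic transcripts, and livers 2 and 3, which had few, all lay below the scramble range for Rrm2.

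No partner of Rrm2 passed the test. Rrm1, the large subunit of the same enzyme, had 8.58, 8.09 and 10.4 CPM in the scramble and 9.06, 6.49 and 7.2 CPM in the S1pr2 shRNA livers (-0.24, SE 0.17, edgeR adjusted p = 0.435). Rrm2b, an alternative small subunit used outside DNA synthesis, was looked at after its values were seen and stood at -0.39 (edgeR adjusted p = 0.417). Tyms, the thymidylate synthase gene, was among the steadiest, with 466 to 527 counts and a log2 fold change of -0.13 (SE 0.10). Tk1, which salvages thymidine, stood at 0.38 (SE 0.24, edgeR adjusted p = 0.369), with 86.0, 166 and 149 counts against 204, 195 and 168. Pcna, the sliding clamp of DNA polymerase, had 25.7, 21.5 and 28.2 CPM in the scramble and 19.9, 19.8 and 18.4 CPM in the S1pr2 shRNA livers. In CPM the groups did not overlap, yet Pcna did not pass (-0.37, SE 0.12, edgeR adjusted p = 0.106). In the authors' FPKM the groups overlapped, with 19.9, 15.9 and 21.6 against 18.4, 15.6 and 15.1.

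**Figure D2:**
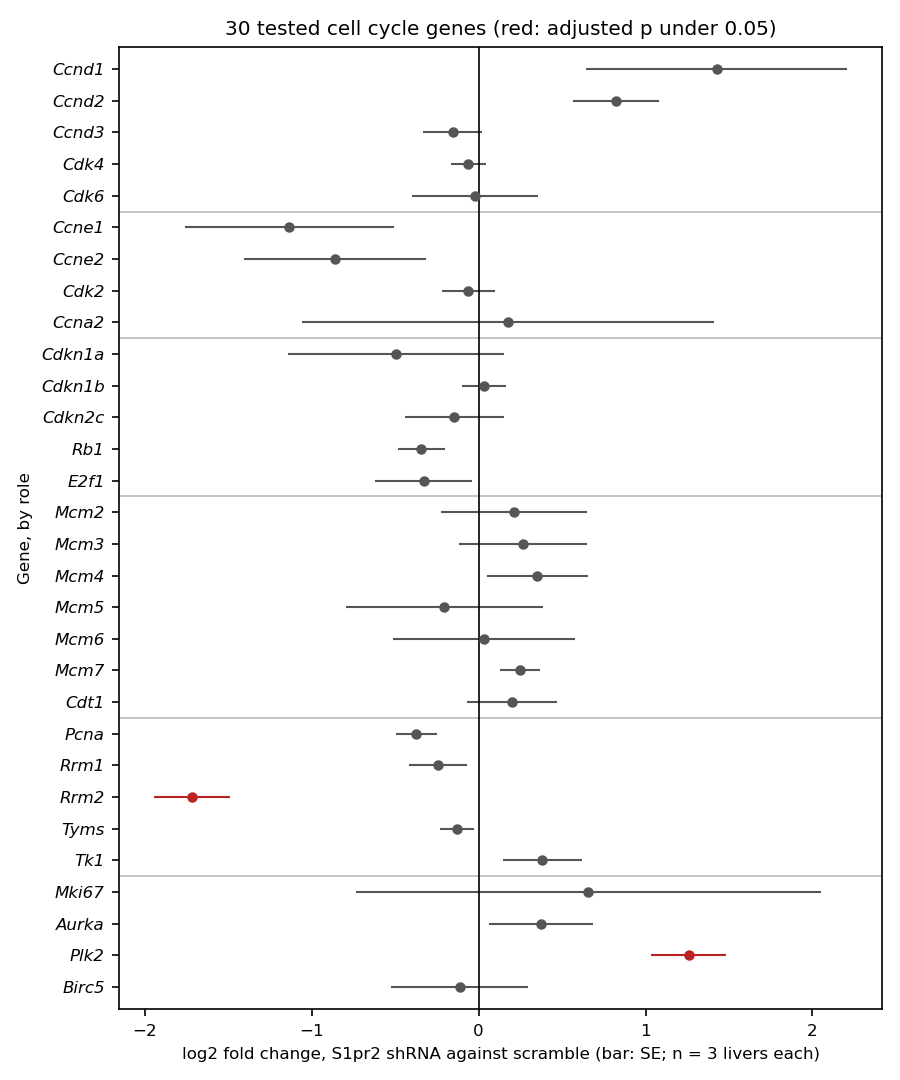
The log2 fold change of the 30 tested genes, S1pr2 shRNA against scramble (points, with bars for the SE, n = 3 livers each), ordered by role. Rrm2 at -1.72 and Plk2 at 1.26, in red, are the 2 genes past the test, and the bars of Ccna2 and Mki67 are more than 1 log2 unit long on each side.

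Among the genes grouped under mitosis, Plk2 was the one that rose. It encodes a kinase that acts mainly around centriole duplication and in stress responses, and not in mitosis like its relative Plk1. It had 67, 99 and 119 counts in scramble livers 1 to 3 and 306, 246 and 192 in S1pr2 shRNA livers 1 to 3. All S1pr2 shRNA livers (11.2 to 15.5 CPM) lay above all scramble livers (4.11 to 7.2 CPM). The means were 5.82 ± 1.58 and 13.9 ± 2.34 CPM (SD, n = 3 each), and the log2 fold change was 1.26 (SE 0.22, edgeR adjusted p = 0.0181). The call was lost without scramble liver 2 (edgeR adjusted p = 0.0611) and without S1pr2 shRNA liver 2 (edgeR adjusted p = 0.0779), where the log2 fold change was 1.28 and 1.2.

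**Figure D3:**
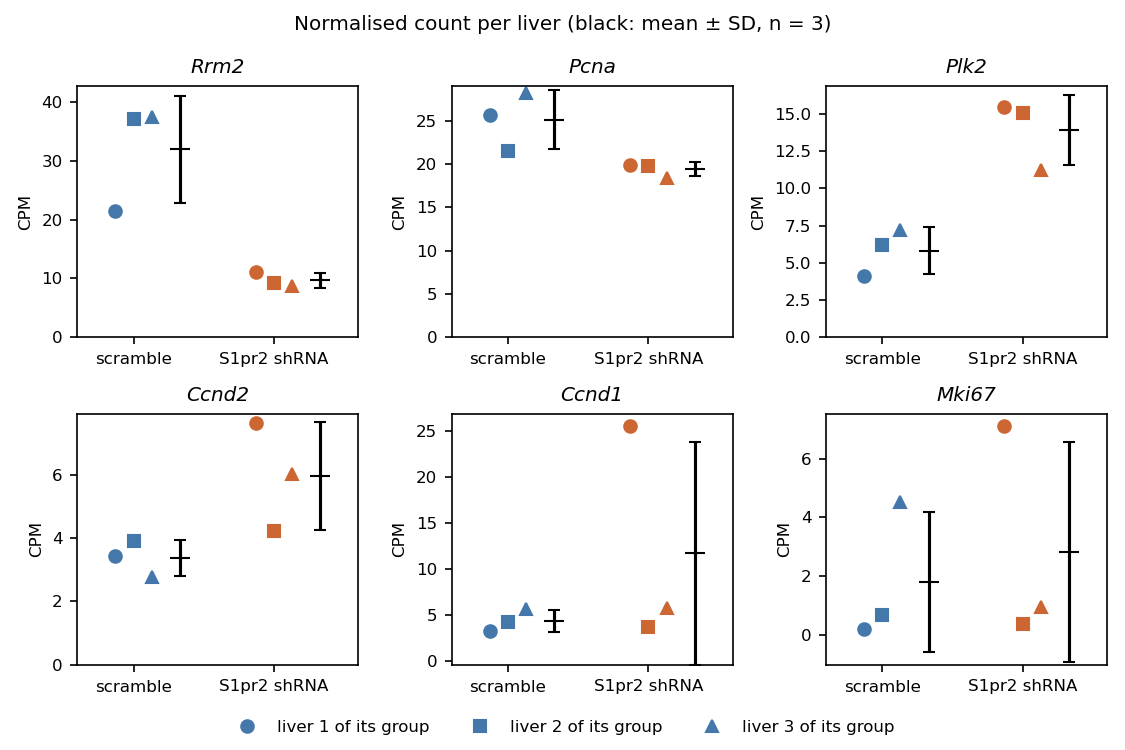
CPM of 6 genes in each liver (colour for the group, symbol for the liver number within its group, black for mean ± SD, n = 3). For Rrm2 and Plk2 the groups are apart, for Pcna and Ccnd2 they are apart by less, Ccnd1 is high in S1pr2 shRNA liver 1 alone at 25.6 CPM, and Mki67 is high in 1 liver of each group.

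The remaining mitosis genes were ordered by liver. Mki67, the standard marker of cycling cells, had 3, 11 and 75 counts in scramble livers 1 to 3 and 141, 6 and 16 in S1pr2 shRNA livers 1 to 3. Its log2 fold change of 0.66 had an SE of 1.39 (edgeR adjusted p = 0.827). Top2a, which untangles replicated DNA, had 2, 4 and 46 counts against 46, 3 and 4. Both genes had their 2 highest values in the same livers, 1 per group. Cdc20, an activator of the anaphase-promoting complex, had 4, 0 and 18 counts against 61, 0 and 4. Plk1, the mitotic polo-like kinase, had 8, 3 and 20 counts against 39, 5 and 5. Aurkb, the kinase of the chromosomal passenger complex, had 0, 2 and 14 counts against 21, 2 and 1, and the checkpoint kinase gene Bub1 1, 0 and 8 against 11, 2 and 0. Top2a, Cdc20, Plk1, Aurkb and Bub1 were under the filter. The other tested genes of this role varied less between livers in counts. These were Aurka, the spindle pole kinase, at 0.38 (SE 0.31, 23 to 68 counts) and Birc5, which encodes survivin, at -0.11 (SE 0.41, 15.7 to 37.2 counts). In the authors' FPKM, Birc5 stood at 0.44, 0.42 and 1.49 against 1.71, 0.46 and 0.32, so scramble liver 3 and S1pr2 shRNA liver 1 were again the highest.

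The 9 genes under the filter (Ccnb1, Ccnb2, Cdk1, Cdc6, Top2a, Cdc20, Aurkb, Bub1 and Plk1) together had 29, 23 and 197 counts in scramble livers 1 to 3 and 354, 28 and 29 in S1pr2 shRNA livers 1 to 3. In CPM their sum was 5.04 ± 5.96 in the scramble and 7.11 ± 9.35 in the S1pr2 shRNA group (SD, n = 3 each), so the spread within each group exceeded its mean. When these genes were fitted without a filter, their log2 fold changes ran from -0.16 (Top2a) to 1.33 (Cdc20) with SEs of 0.83 to 1.75, and the lowest edgeR adjusted p was 0.626 (Cdc6). Nothing can be said on a group difference for them at this depth and spread.

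The shared pattern was counted as a description, since it was chosen after the values were seen. Scramble liver 3 and S1pr2 shRNA liver 1 were the 2 highest livers in CPM for 18 of the 39 genes (46.2%). Split by the filter, it held for 10 of the 30 tested genes (33.3%), against 8.32% of all genes tested. Under the filter it held for 8 of the 9 (88.9%, all but Cdc6). The share there was 20.8% of the 1214 genes under the filter with at least 20 counts in total. That minimum was not applied to the 9 genes, and Cdc6 had 19 counts. The filter needs enough counts in 3 livers, so a gene high in only 2 livers and near 0 in the rest falls under it. The shares under the filter therefore depend in part on the filter itself. By role, it held for 8 of 9 mitosis genes (all but Plk2), 5 of 7 genes of cyclins E, A and B and their kinases, 4 of 8 licensing genes and 1 of 5 genes of the clamp and nucleotide supply. It held for 0 of 5 D-type cyclins and kinases and 0 of 5 inhibitors and retinoblastoma-E2F genes.

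Markers of other cell types differed between the same livers. Summed CPM of 8 macrophage markers were 94.1, 98.6 and 165.9 for the scramble livers, in order of their number, and 256.1, 135.5 and 131.1 for the S1pr2 shRNA livers. For 5 of the 8 the 2 highest livers were scramble liver 3 and S1pr2 shRNA liver 1. The 6 stellate cell markers summed to 48.4, 103.4 and 196.3 CPM against 243.9, 88.1 and 95.1 CPM, with the same 2 livers highest for 4 of the 6. The 2 collagen genes of this list had its largest counts in those 2 livers. Col1a1 had 82, 173 and 693 counts against 1421, 70 and 93, and Col3a1 83, 383 and 1322 against 1626, 168 and 265. Lrat and Reln did not have this order of livers. Lrat had 123, 192 and 334 counts against 329, 183 and 345, and Reln 345, 651 and 596 against 975, 782 and 669. No macrophage or stellate marker was at 0 in any liver. Between the groups, all 8 macrophage markers (median log2 fold change 0.49) and 5 of the 6 stellate markers were higher in the S1pr2 shRNA livers. Of both lists 0 passed edgeR's test. The 5 cholangiocyte markers summed to 27.7, 41.3 and 54.5 CPM against 105.1, 45.2 and 45.3 CPM, and the same 2 livers were highest for 2 of them. Spp1 alone held 1675 of the 2077 counts of this list in S1pr2 shRNA liver 1. It had 274, 358 and 500 counts in the scramble livers and 494 and 516 in S1pr2 shRNA livers 2 and 3. Krt19, Sox9 and Epcam did not have this order, Epcam with 8, 8 and 7 counts against 16, 20 and 22.

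Other marker lists did not show this order of livers. The 7 endothelial markers summed to 167 to 179 CPM in the scramble and 199 to 218 CPM in the S1pr2 shRNA livers, and scramble liver 3 and S1pr2 shRNA liver 1 were the 2 highest for 0 of the 7. These sums followed the groups, as Plk2 did, and 3 of the 7 markers (42.9%) rose, against 3.02% of all genes tested. They were Cdh5, Kdr and Tek, at 0.49, 0.57 and 0.48 on the log2 scale. In 4 of the 7 (57.1%) the groups did not overlap, against 31.9% of all genes tested. Not every marker of the list went up: 6 stood above 0 and Lyve1 below it at -0.83. Lyve1 had 195, 347 and 410 counts in the scramble livers against 313, 129 and 153. The 6 hepatocyte markers summed to 144400 ± 16850 CPM in the scramble and 107900 ± 22480 CPM in the S1pr2 shRNA livers (SD, n = 3 each). Of these 5 stood below 0 and Apoa1 above it at 1.08, and 0 passed edgeR's test (3 had an unadjusted p under 0.05). The part of either list in the Plk2 and Rrm2 results was not tested. Scramble liver 3 and S1pr2 shRNA liver 1 were the 2 highest for 0 of the 6 hepatocyte and 6 erythroid markers. They were so for 1 of 5 neutrophil and monocyte markers. These 5 summed to 2.82 to 7.03 CPM in the scramble and 5.21 to 10.6 CPM in the S1pr2 shRNA livers. The 4 tested ones all stood above 0 (median log2 fold change 0.61), and 0 passed edgeR's test. T and NK cell markers were near absent, at 10.7 to 14.8 counts for 7 genes in the scramble and 23.0 to 28.6 in the S1pr2 shRNA livers, with Cd3e at 0 in 2 livers. B and plasma cell markers gave 26.0 to 48.2 and 43.8 to 58.9 counts for 6 genes. In bulk tissue, more cells of a type and more RNA per cell cannot be told apart. The part of macrophages, stellate cells or any other cell type in the mitotic transcripts was not tested.

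**Figure D4:**
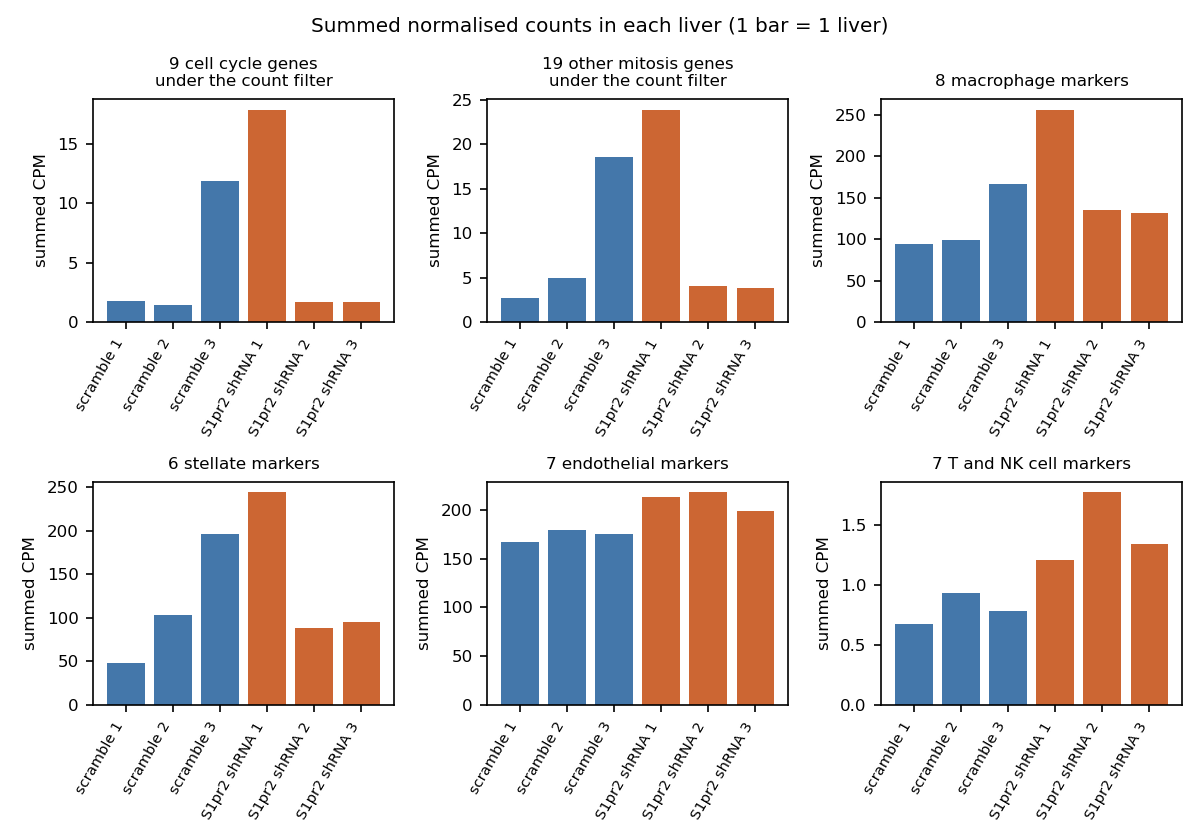
Summed CPM in each liver (1 bar per liver, blue for scramble and orange for S1pr2 shRNA) of the 9 cell cycle genes under the filter, 19 other mitosis genes under the filter and 4 marker lists. Scramble liver 3 and S1pr2 shRNA liver 1 stand above the rest in both mitosis panels and in the macrophage and stellate panels, and not in the endothelial or the T and NK cell panel.

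Further genes of the cycle were taken from lists that do not hold the 39. The share called among all genes tested was 7.66%. Of 43 other mitosis genes found, 24 were tested: 0 rose, 1 fell (4.17%) and 23 did not pass, with a median log2 fold change of 0.06. The one that fell was Mad1l1, a spindle checkpoint gene, from 17.2 ± 0.543 to 12.3 ± 1.57 CPM (SD, n = 3 each; -0.49, SE 0.12, edgeR adjusted p = 0.0484). Scramble liver 3 and S1pr2 shRNA liver 1 were the 2 highest livers for 31 of the 43 (72.1%), 13 of the 24 tested and 18 of the 19 under the filter. Over all genes these shares were 8.32% of those tested and 20.8% of those under the filter with at least 20 counts. Among the 31, Foxm1, the transcription factor gene of the mitotic program, had 4, 8 and 23 counts against 39, 3 and 3. It was named after its values were seen.

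An unadjusted p under 0.05 was reached by 24.5% of all genes tested. Of 39 tested genes of the replication fork and origin, 0 passed edgeR's test in either direction (6 had an unadjusted p under 0.05), and the median was 0.00. Of 43 tested G1 and CDK regulators, 2 rose (4.65%), 0 fell and 41 did not pass (median -0.04), against 7.66% called among all genes tested. In this list 14 of the 43 had an unadjusted p under 0.05. In 18 (41.9%) the groups did not overlap, against 31.9% of all genes tested. The share without overlap was 12.5% for the other mitosis genes, 20.5% for the fork and origin genes and 27.8% for p53 targets. E2f8, which encodes an atypical E2F that represses E2F targets, had 14.6, 21 and 20 scramble counts against 65, 47.0 and 39. Its log2 fold change was 1.29 (SE 0.28, edgeR adjusted p = 0.0334). Cks2, a small CDK-binding subunit, averaged 11.4 ± 1.42 and 16.9 ± 1.82 CPM (SD, n = 3 each; log2 fold change 0.56 with an SE of 0.14, edgeR adjusted p = 0.0444). For E2f8 and Cks2 all S1pr2 shRNA livers lay above all scramble livers. E2f7, of the same list, went the other way, with 86, 197 and 105 scramble counts against 38, 54 and 18. It did not pass edgeR's test and was named after its values were seen. Of 18 tested p53 targets 0 passed edgeR's test, 4 had an unadjusted p under 0.05, and the median was 0.02. That list holds none of the 39 genes, so Plk2, which was called, and Cdkn1a, which was not, are not counted in it.

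How far single livers set the fold change differed from gene to gene. For Mki67 the log2 fold change was 2.70 without scramble liver 3 and -1.45 without S1pr2 shRNA liver 1, and for Ccna2 it was 2.72 and -1.19. Neither passed in any of these fits (lowest edgeR adjusted p = 0.229). Without both of these livers, Rrm2 stood at -1.70 and Plk2 at 1.35, close to their values over all livers. With 2 livers a group left, both had an edgeR adjusted p of 0.062, and the test called 200 genes in all.

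**Figure D5:**
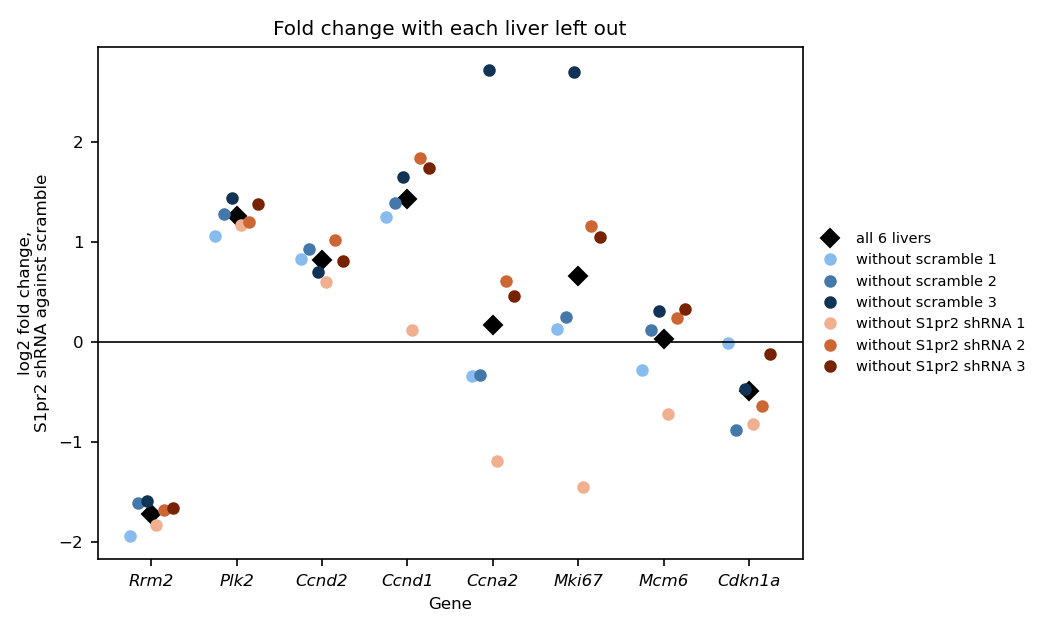
The log2 fold change of 8 cell cycle genes over all 6 livers (black diamonds) and with each liver left out (circles, coloured by the liver left out). Rrm2 and Plk2 keep their side of 0 and move little, Ccnd1 drops to 0.12 without S1pr2 shRNA liver 1, and Ccna2 and Mki67 change sign.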

How the data were processed

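Total RNA of 6 mouse livers (3 scramble, 3 S1pr2 shRNA) was sequenced on a DNB platform. The submitters' processing notes list, without roles, the mm9 build and the tools DESeq2, RSEM 1.2.12, Bowtie2 and HISAT2. Read filters and strand handling are unknown from the sources used here; without strand, overlapping antisense genes cannot be told apart. Per the file headers, the authors deposited for each gene an expected count (reads assigned by RSEM, not scaled to depth) and an FPKM (scaled by the authors to transcript length and depth). They also gave the transcript length in bases. Between 24.5 and 25.2% of listed genes had a fractional expected count. Among the 39 genes these were Ccnd3, Ccne2, Ccna2, E2f1, Mcm5, Tyms and Birc5 in 6 libraries, Tk1 in 5 and Rrm2 in 1, so their values are less certain.

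Expected counts were rounded and filtered with filterByExpr (minimum count 10), and genes failing it were called too low to judge. TMM factors (0.924 to 1.154) gave CPM, and the edgeR 4.0.16 quasi-likelihood test (robust, group only; R 4.3.3) was run across all 12230 genes with Benjamini-Hochberg adjustment. The script was tested on simulated data with 200 changed genes. FPKM were used to compare levels between genes and, with limma 3.58.1 on log2(FPKM + 0.1) or log2(FPKM + 1) where the mean was 0.1 FPKM or more, as an alternative. DESeq2 1.42.0, limma-voom, other scalings and filters and left-out livers were the others. Named were S1pr2, all 39 genes and up to 4 called genes with the smallest p of each further list. The genes and lists were chosen with earlier results of these data known. Promoter windows came from RefSeq, and no other coordinates are given because builds differ.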

Additional observations from a re-analysis of the deposited data

How the results depend on the processing

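Among the 39 cell cycle genes, 1 rose and 1 fell under each of the 10 settings that kept all 6 livers (other scalings, filters, tests and FPKM), and these were Plk2 and Rrm2 each time. Leaving out 1 liver gave 0 to 1 rises and 1 fall throughout. The rise was lost without scramble liver 2, where edgeR had 2 such genes at an unadjusted p under 0.05, and without S1pr2 shRNA liver 2, where it had 3. Without both scramble liver 3 and S1pr2 shRNA liver 1, a setting chosen after seeing the data, 0 rose and 0 fell in edgeR (1 and 3 at an unadjusted p under 0.05), and 200 of all genes were called. DESeq2 and limma-voom were not run on that subset. Over all genes the calls numbered 937, against 1466 with the DESeq2 Wald test and 231 to 643 with 1 liver left out. The lowest came without S1pr2 shRNA liver 2, and the others were 400, 414, 456 and 533 without scramble liver 3, S1pr2 shRNA liver 3, scramble liver 2 and scramble liver 1. The cause was not tested. Of the calls, 60.6% were lower with TMM factors, 48.5% with upper-quartile factors and 30.8 and 30.6% on FPKM with a pseudocount of 0.1 and 1, where the all-gene median was 0.16 and 0.10 on the log2 scale. Against that median Plk2 and Rrm2 kept their directions. Of the 30 tested cell cycle genes, 14 changed sign under at least 1 alternative, none of them called in any. The S1pr2 call was lost under 8 settings, with edgeR or limma adjusted p from 0.0677 to 0.117. With the replicate number as a block, 808 genes were called, 1 cell cycle gene rose and 1 fell. Deviations from the group means of same-numbered livers had correlations over genes of -0.06, 0.22 and -0.12. The highest value of any pair was 0.30, for scramble liver 3 with S1pr2 shRNA liver 1. Deviations within a group of 3 sum to 0, so these values cannot tell whether the livers were paired. For the 9 genes under the filter, depth and the spread within groups limit any statement.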

Other observations

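Myc, a growth-promoting transcription factor gene, was, like Ccnd1, high in S1pr2 shRNA liver 1 alone. It had 62, 64 and 50 counts in scramble livers 1 to 3 and 485, 91 and 91 in S1pr2 shRNA livers 1 to 3, and was named after its values were seen. The groups did not overlap in CPM, but the log2 fold change of 1.72 did not pass (edgeR adjusted p = 0.190). Scramble liver 3, the other liver with high mitotic transcripts, had the lowest Myc count of all 6.

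Rrm2 was abundant in livers with few mitotic transcripts. Per length, the authors' FPKM of Rrm2 was 9.38, 15.5 and 16.2 in scramble livers 1 to 3. In these 3 libraries Mki67 was at 0.02, 0.06 and 0.42 FPKM and Top2a at 0.02, 0.04 and 0.5 FPKM. In scramble liver 2, Rrm2 had 595 counts beside 4 for Top2a and 2 for Ccnb1. Which cells of the liver hold the Rrm2 transcript was not tested.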
